A study of Mus musculus with 8 samples.

Results

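The 95 genes described here encode the nuclear subunits and several assembly factors of the oxidative phosphorylation complexes, the enzymes of the inner mitochondrial membrane that pass electrons to oxygen and make ATP. They are the mRNAs on the array whose symbol begins with Nduf, Uqcr, Cox4, Cox5, Cox6, Cox7, Cox8 or Atp5, together with Sdha, Sdhb, Sdhc and Sdhd, out of 20476 genes with mRNA probes. Symbols came from the array files or from RefSeq, so a few genes appear under a newer name than the prefix. Spinal cord RNA of 8 female mice, aged 8 weeks, was hybridised to 1 array per mouse: 4 mice had a contusion injury, a bruise of the cord from a blunt impact, and 4 were controls. The samples were T9 to T10 cord around the injury. The labels disagree on 2 points. All 4 contusion titles give 3 days after injury, while the descriptions of contusion replicates 1, 2, 3 and 4 give 3, 4, 5 and 6 days. The control descriptions call the cord normal, and the series text calls those mice sham. No genotype or strain was given in the sources used here.

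Complex I (NADH dehydrogenase) and complex II (succinate dehydrogenase) feed electrons from metabolism into ubiquinone, complex III passes them to cytochrome c, and complex IV (cytochrome c oxidase) hands them to oxygen. The proton gradient built by complexes I, III and IV drives complex V, the ATP synthase. Neurons depend on this system for the ATP that keeps ion gradients and synapses running, while activated phagocytes lean more on glycolysis. Some complex IV subunits exist as a common form and a second form that is typical of heart, skeletal muscle, lung or testis.

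Levels are log2 intensities relative to the array's 75th percentile, differences are contusion minus control ± the standard error from limma with n = 4 arrays per group, and a gene was called at an adjusted p under 0.05 over all 89105 features tested. Between 72.9% and 75.4% of probes were well above background on each array, and arrays of a group correlated at 0.988 to 0.992. All but 1 of the 95 genes passed the filter on dim probes, which asked for a signal well above background on at least 4 of 8 arrays. The exception was Cox8c, a form of a small complex IV subunit, whose 2 probes were well above background on 0 of 8 arrays. All 94 tested genes were well above background on every array. Slide 1 carried control replicates 2, 3 and 4 with contusion replicate 1, and slide 2 carried control replicate 1 with contusion replicates 2, 3 and 4. Of 12 neuron markers 10 fell and 1 rose, and their mean level was 6.28 to 6.44 on the control arrays and 5.75 to 5.97 on the contusion arrays. All 10 markers of monocytes and macrophages rose, with mean levels of 0.58 to 2.64 and 5.04 to 5.38. Of 7 oligodendrocyte markers 2 fell and 0 rose (7.58 to 7.93 and 7.46 to 7.53), and of 6 endothelial markers 5 rose (2.02 to 2.55 and 3.04 to 3.28). In tissue RNA, fewer cells of a type and less RNA per cell cannot be told apart, and the part of these cell types in the results below was not tested.

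Genes of the respiratory complexes leaned to lower levels in the contused cord, by small amounts. Of the 94 tested genes 29 fell, 3 rose and 62 were not called. Among all 18198 mRNAs tested, 51.1% were called, 25.3% lower and 25.8% higher, so the share of members called lower (30.9%) was near that background and the share called higher was below it. In value, 84 of the 94 lay below 0, where 50.2% of all mRNAs did. The median difference was −0.19 for the members and 0.00 for all mRNAs. Differences of 2-fold or more were seen in 2 of 94 members, Cox6a2 and the uncalled Cox8b, against 10.6% of mRNAs. For 30 members all contusion arrays lay under all control arrays, and for 3 they lay above, against 25.1% and 26.6% of mRNAs.

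**Figure D1:**
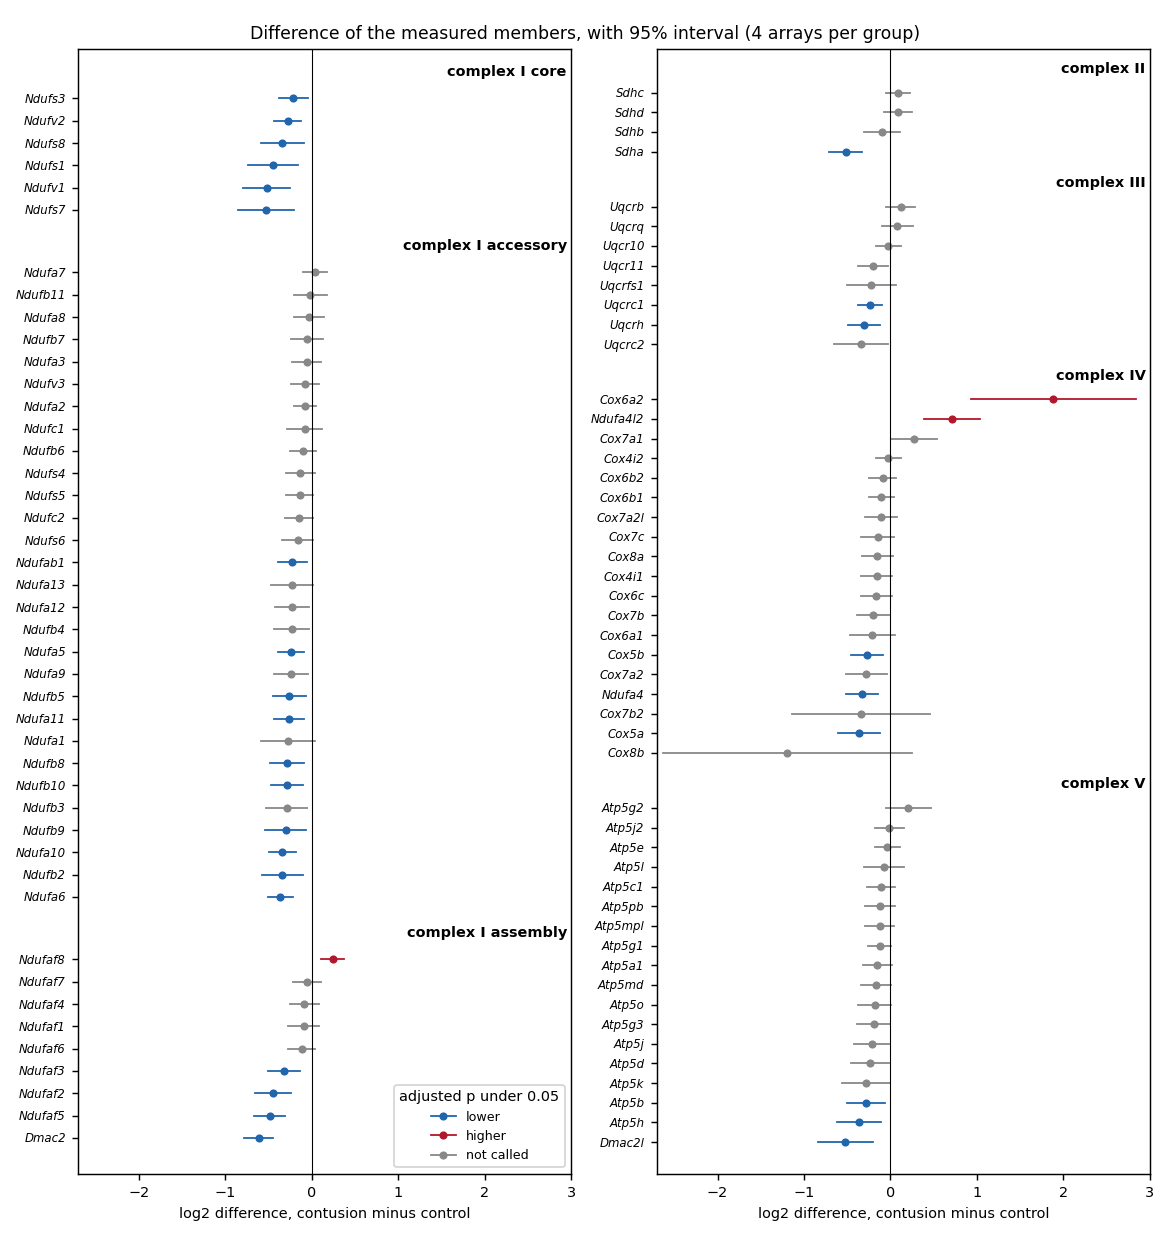
Log2 difference (contusion minus control, x axis) of the tested genes, grouped by complex (1 core gene of complex I is not drawn), with the 95% interval from limma; blue and red points passed an adjusted p of 0.05. Most points lie a little left of 0, with Cox6a2 and Ndufa4l2 on the right and Cox8b on the left as the exceptions in complex IV.

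The lean to lower values was present on each contusion array, and the number of calls was not stable. Relative to each gene's control mean, the median member stood at −0.17, −0.19, −0.15 and −0.24 on contusion replicates 1, 2, 3 and 4. On control replicates 1, 2, 3 and 4 it stood at −0.12, 0.12, −0.04 and 0.04, so control replicate 1 lay only just above contusion replicate 3. The median mRNA stayed between −0.07 and 0.05 on all 8 arrays. When arrays were scaled to their medians, control replicate 1 (−0.18) lay below contusion replicates 1 (−0.14) and 3 (−0.16), and the groups overlapped. In the authors' quantile-normalized table the controls stood at −0.04 to 0.04 and the contusion arrays at −0.21 to −0.14. Those values gave 44 members called lower, against 26.6% of mRNAs, and with normexp background correction and quantile scaling 55 were (58.5% of the members, against 28.9% of mRNAs).

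**Figure D2:**
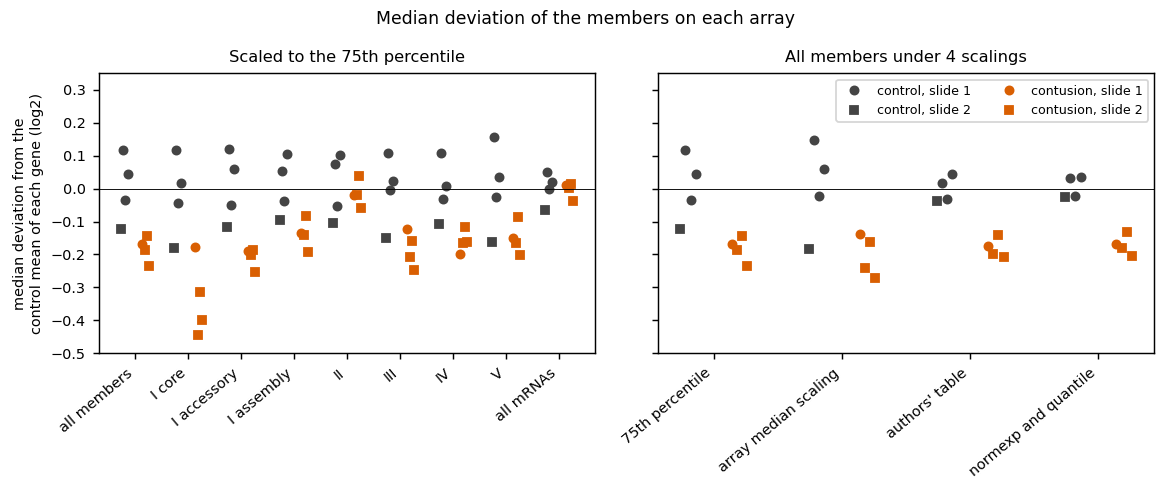
Median deviation of the members from each gene's control mean on every array (y axis, log2), by complex at the left and under 4 scalings at the right; grey is control, orange contusion, circles slide 1 and squares slide 2. Control replicate 1, the only control on slide 2, is the lowest grey point in most columns at the left, and the groups separate most clearly under the 2 quantile scalings.

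Single arrays and the slide moved the count of calls. Without control replicate 1, 44 members were called lower (46.8% of the members, against 27.7% of mRNAs). Without control replicates 2 or 4 the counts were 14 and 13 (14.9% and 13.8%, against 20.9% and 20.6% of mRNAs). Without contusion replicates 3 or 4 they were 19 and 13 (20.2% and 13.8%, against 22% and 21% of mRNAs). The count of members called higher was 3 each time, where 22.4% to 25.1% of mRNAs were called higher. With slide as a block 14 of the 29 members stayed lower (14.9% of the members, against 20.4% of mRNAs) and all 3 that rose stayed higher. The median member difference was −0.21 within slide 1 and −0.05 within slide 2, where 1 array alone stands for contusion or for control. In both slides, 64 of the 94 members lay below 0, including all 29 called lower. The following 8 genes kept the call lower in all 18 alternative settings: Ndufa6, Ndufa10, Ndufv1, Ndufaf2, Ndufaf5, Dmac2, Sdha and Ndufa4. Cox6a2 and Ndufa4l2 kept the call higher in all 18. Between 19.4% and 28.9% of all mRNAs were called lower in each of these settings. How many mRNAs kept a call in all 18 was not counted, so these genes have no background to be judged by.

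Complex I genes made up 20 of the 29 falls and 45 of the 94 genes tested. A share of 25.3% of mRNAs was called lower. Its core consists of 7 nuclear-encoded subunits that carry the flavin and the iron-sulfur clusters and work beside 7 subunits encoded in mitochondrial DNA, which the member rule did not cover. Of the 7 nuclear core genes 6 fell, and the median difference was −0.34. Ndufv1, which binds NADH and the flavin, had levels of 6.18, 6.69, 6.47 and 6.39 on control replicates 1 to 4 and 6.07, 5.88, 5.93 and 5.76 on contusion replicates 1 to 4. All contusion arrays lay below all control arrays, and Ndufv1 fell by 0.52 ± 0.12 (adjusted p = 0.00826). Ndufs7, the subunit with the last cluster before ubiquinone, had control levels of 6.64, 7.16, 7.04 and 6.97 and contusion levels of 6.73, 6.36, 6.34 and 6.25. Contusion replicate 1 lay above control replicate 1, so the groups overlapped. Ndufs7 fell by 0.53 ± 0.14 (adjusted p = 0.0174). Its second probe fell by 0.49 ± 0.09 (adjusted p = 0.00327).

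Ndufs1, the largest core subunit, had control levels of 6.06, 6.51, 6.28 and 6.30 and contusion levels of 6.11, 5.84, 5.72 and 5.69. Again contusion replicate 1 was the highest of its group and exceeded control replicate 1. Ndufs1 fell by 0.45 ± 0.13 (adjusted p = 0.0227), and this call ended without control replicates 2 (adjusted p = 0.0574) or 4 (adjusted p = 0.0541) and without contusion replicates 3 (adjusted p = 0.0625) or 4 (adjusted p = 0.0619). The other called core genes were Ndufs8 (−0.34 ± 0.11, adjusted p = 0.0352), Ndufv2 (−0.28 ± 0.07, adjusted p = 0.013) and Ndufs3 (−0.21 ± 0.07, adjusted p = 0.0454). The calls of Ndufs8 and Ndufs3 were lost with slide as a block (adjusted p = 0.107 and 0.134) and without most single arrays. Over the 7 core genes the median deviation was −0.18 on contusion replicate 1 and −0.45, −0.32 and −0.40 on replicates 2, 3 and 4, while control replicate 1 stood at −0.18. Contusion replicate 1 is the one on slide 1 and the one described as day 3, so slide, labelled day and mouse cannot be told apart for it.

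**Figure D3:**
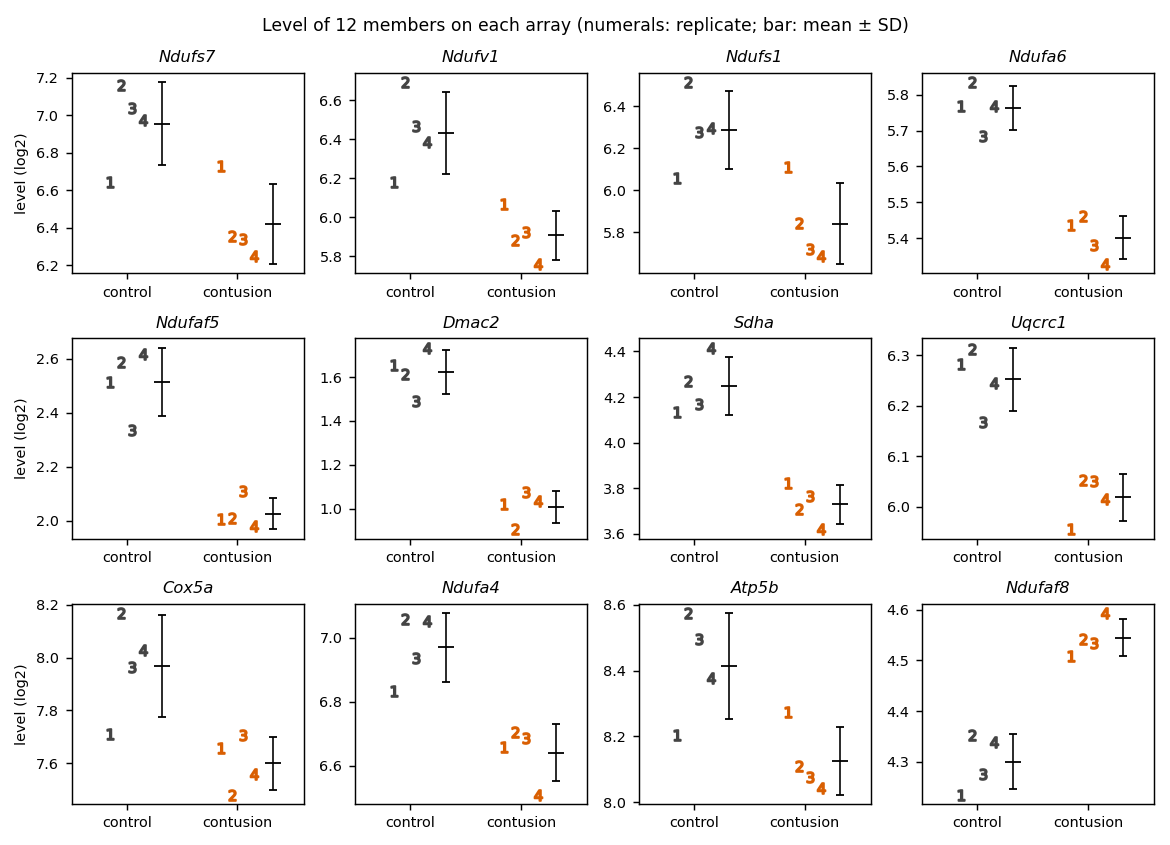
Levels of 12 genes on each array (y axis, log2 relative to the 75th percentile, with a different range per panel); numerals are replicate numbers and bars are the mean ± SD of 4 arrays. Contusion arrays lie below control arrays in Ndufv1, Ndufa6, Ndufaf5, Dmac2, Sdha, Uqcrc1, Cox5a and Ndufa4 and above them in Ndufaf8, while the groups overlap in Ndufs7, Ndufs1 and Atp5b.

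The 29 accessory genes, whose products wrap the core and stabilise it, had smaller differences. Of these 10 fell, 0 rose and 28 lay below 0, with a median of −0.23 and a range of −0.36 to 0.03. Among all mRNAs 25.3% were called lower, 25.8% were called higher and 50.2% lay below 0. Ndufa6, an accessory subunit near the hinge of the complex, had levels of 5.77, 5.84, 5.68 and 5.77 in controls and 5.44, 5.46, 5.38 and 5.33 after contusion. The 2 sets of 4 did not overlap, and Ndufa6 fell by 0.36 ± 0.06 (adjusted p = 0.00251). Ndufa10, a subunit of the membrane arm related to nucleoside kinases, had levels of 6.11, 6.15, 6.05 and 6.24 against 5.87, 5.80, 5.80 and 5.72 and fell by 0.34 ± 0.07 (adjusted p = 0.00466). Here too every contusion array lay below every control array. Ndufa6 differed by −0.33 in slide 1 and −0.38 in slide 2, and Ndufa10 by −0.28 and −0.34.

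The distal membrane arm subunits Ndufb10 (−0.29 ± 0.08, adjusted p = 0.0223) and Ndufb8 (−0.28 ± 0.09, adjusted p = 0.0304) fell as well. Both calls ended with slide as a block (adjusted p = 0.0708 and 0.106), and without control replicate 2 the adjusted p was 0.0614 for Ndufb10 and 0.0742 for Ndufb8. At the other end of the list, Ndufa7 (0.03 ± 0.06), Ndufb11 (−0.02 ± 0.08) and Ndufa8 (−0.03 ± 0.08) were not called. Ndufab1, the mitochondrial acyl carrier protein, gave an unclear result. The probe that stands for it fell by 0.22 ± 0.08 (adjusted p = 0.0461), but its 2 dimmer probes were higher by 0.88 ± 0.07 and 0.56 ± 0.09, and with the mean of its probes Ndufab1 differed by 0.41 (adjusted p = 0.00207). A pseudogene of Ndufab1 is annotated, and which transcript each probe read was not tested.

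Assembly factors of complex I went both ways, in 9 genes of which 4 fell and 1 rose (25.3% and 25.8% of all mRNAs). They build the complex and are absent from the finished enzyme. Dmac2, named Atp5sl in the array files and needed for the distal membrane arm, had levels of 1.66, 1.61, 1.49 and 1.74 in controls and 1.02, 0.91, 1.08 and 1.04 after contusion. The gap between the groups was wide, and Dmac2 fell by 0.62 ± 0.07 (adjusted p = 0.000467), with −0.59 within slide 1 and −0.65 within slide 2. Ndufaf5, a hydroxylase that modifies Ndufs7, had levels of 2.52, 2.59, 2.34 and 2.62 against 2.01, 2.01, 2.11 and 1.98 and fell by 0.49 ± 0.08 (adjusted p = 0.0017). Its within-slide differences were −0.51 and −0.48. Ndufaf2 (−0.45 ± 0.09, adjusted p = 0.00556) and Ndufaf3 (−0.32 ± 0.08, adjusted p = 0.0147) also fell, without overlap.

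Ndufaf8, the partner that stabilises Ndufaf5, moved the opposite way. Its levels were 4.24, 4.35, 4.28 and 4.34 in controls and 4.51, 4.54, 4.53 and 4.59 after contusion, with no overlap. Ndufaf8 rose by 0.25 ± 0.06 (adjusted p = 0.0109), and by 0.19 within slide 1 and 0.32 within slide 2. It was read by 1 probe. Of the other 4 assembly factors, Ndufaf1, Ndufaf6 and Ndufaf7 were not called with any probe. Ndufaf4 was not called by its brightest probe (−0.09 ± 0.07, adjusted p = 0.392), while 2 of its 3 dimmer probes fell by 0.77 ± 0.13 each (adjusted p = 0.00156 and 0.00166). With the mean of its probes Ndufaf4 was called lower (−0.47, adjusted p = 0.00562).

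The promoters of 4 of these genes are shown because they carry the sequence elements known from respiratory genes and come from members that differ in direction or in complex. Ndufs7 and Uqcrc1, a core subunit of complex III, stand for the subunits that fell, and Ndufaf5 and Ndufaf8 for the pair of assembly factors that moved apart. The choice was made after the matches were seen. Sequences are from RefSeq (GRCm38.p6), 250 bases before to 50 after the table's start, 5′ to 3′, and the capitals mark matches to the motifs named below on either strand.
Ndufs7 promoter, chr10:80249199-80249498, plus strand: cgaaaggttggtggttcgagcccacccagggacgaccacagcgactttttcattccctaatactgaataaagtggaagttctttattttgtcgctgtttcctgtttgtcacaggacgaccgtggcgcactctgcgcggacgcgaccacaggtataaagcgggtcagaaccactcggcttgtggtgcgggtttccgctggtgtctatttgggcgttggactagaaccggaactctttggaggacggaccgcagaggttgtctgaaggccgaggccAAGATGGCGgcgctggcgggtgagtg
Uqcrc1 promoter, chr9:108936398-108936697, plus strand: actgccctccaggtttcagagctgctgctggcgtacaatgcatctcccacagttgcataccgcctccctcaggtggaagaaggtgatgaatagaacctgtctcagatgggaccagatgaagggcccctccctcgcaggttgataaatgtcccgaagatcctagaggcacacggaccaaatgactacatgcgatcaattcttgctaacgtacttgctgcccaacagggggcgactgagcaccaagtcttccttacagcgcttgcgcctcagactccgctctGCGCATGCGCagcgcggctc
Ndufaf5 promoter, chr2:140170396-140170695, plus strand: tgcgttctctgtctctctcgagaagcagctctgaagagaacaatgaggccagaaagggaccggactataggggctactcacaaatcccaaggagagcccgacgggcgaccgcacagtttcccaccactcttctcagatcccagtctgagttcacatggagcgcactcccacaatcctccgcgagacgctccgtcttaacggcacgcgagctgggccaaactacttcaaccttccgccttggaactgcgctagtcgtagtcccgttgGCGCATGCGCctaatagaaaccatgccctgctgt
Ndufaf8 promoter, chr11:120098684-120098983, plus strand: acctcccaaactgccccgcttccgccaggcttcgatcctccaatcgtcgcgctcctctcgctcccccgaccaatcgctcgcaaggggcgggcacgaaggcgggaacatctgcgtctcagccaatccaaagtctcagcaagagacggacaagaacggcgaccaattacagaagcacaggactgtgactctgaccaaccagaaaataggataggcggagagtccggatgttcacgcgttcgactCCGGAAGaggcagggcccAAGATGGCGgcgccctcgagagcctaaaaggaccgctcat
In Ndufs7 the capitals mark the YY1 motif AAGATGGCG, which begins 24 bases after the start and holds an ATG. In Uqcrc1 and Ndufaf5 they mark the NRF1 motif GCGCATGCG, found once on each strand in overlapping matches, from 30 and 31 bases after the start in Uqcrc1 and from 16 and 17 in Ndufaf5. Ndufaf8 held the ETS motif CCGGAAG, read by the NRF2 (GABP) factors, from 8 bases before the start and the YY1 motif from 10 bases after it.

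These motifs were more frequent in promoters of the members than in promoters of all genes in the table. Of the 95 members 78 had a promoter in the table. The NRF1 motif was in 12.8% of them, against 1.95% of 27025 genes, the YY1 motif in 11.5% against 1.64%, and the ETS motif in 24.4% against 9.93%. The motif TCAAGGTCA of the estrogen-related receptors was in 2.56% against 0.466%, and GACGTG, a core of hypoxia elements, in 10.3% against 7.15%. These last shares of the members are 2 and 8 promoters. The 27025 genes were not limited to those on the array. Among the 27 promoters of members that fell, 11.1% held the NRF1 motif, 14.8% the ETS motif and 7.41% the YY1 motif. Among the 50 promoters of members not called the shares were 14.0%, 28.0% and 12%. The hypoxia core was in 18.5% of the first and 6.0% of the second, which is 5 and 3 promoters. A match describes the letters only.

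In complex II, 1 of 4 genes fell, where 25.3% of all mRNAs were called lower. Sdha, the flavoprotein that oxidises succinate, had levels of 4.14, 4.27, 4.17 and 4.42 in controls and 3.82, 3.71, 3.77 and 3.62 after contusion. No contusion array reached a control array, and Sdha fell by 0.52 ± 0.08 (adjusted p = 0.00169), with −0.46 and −0.44 within the slides. Its other 2 probes fell by 0.48 ± 0.07 and 0.39 ± 0.08. The iron-sulfur subunit gene Sdhb (−0.10 ± 0.09, adjusted p = 0.426) and the membrane anchors Sdhc (0.09 ± 0.06, adjusted p = 0.296) and Sdhd (0.09 ± 0.07, adjusted p = 0.387) were not called. The 95% intervals were −0.31 to 0.11 for Sdhb, −0.05 to 0.23 for Sdhc and −0.08 to 0.25 for Sdhd, so a fall as large as that of Sdha lay outside each of them.

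In complex III, 2 of 8 genes fell and 0 rose, with a median of −0.21. Among all mRNAs 25.3% were called lower and 25.8% higher, so these calls were no more frequent than that background. Uqcrc1, a core subunit related to processing peptidases, had levels of 6.28, 6.31, 6.17 and 6.25 against 5.96, 6.05, 6.05 and 6.02. The groups did not overlap, and Uqcrc1 fell by 0.23 ± 0.06 (adjusted p = 0.0165), with −0.29 and −0.24 within the slides. Uqcrh, the hinge protein next to cytochrome c1, had levels of 7.92, 8.18, 8.12 and 8.06 against 7.74, 7.71, 7.88 and 7.70 and fell by 0.31 ± 0.08 (adjusted p = 0.0152), a call lost with slide as a block (adjusted p = 0.0556) and with normexp and quantile scaling (adjusted p = 0.0612). Uqcrc2, the partner of Uqcrc1, had a larger but more variable difference (−0.35 ± 0.14, adjusted p = 0.0791), as control replicate 1 at 6.09 lay among the contusion arrays at 5.92 to 6.29. The second probe of Uqcrc2 fell by 0.79 ± 0.17 (adjusted p = 0.00524), and with the mean of both the gene was called lower (−0.57, adjusted p = 0.0162). The Rieske protein gene Uqcrfs1 (−0.22 ± 0.12, adjusted p = 0.199) was not called either. Uqcrb (0.12 ± 0.07) and Uqcrq (0.08 ± 0.08), small subunits around the ubiquinone site, lay above 0 and were not called.

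Complex IV showed the widest spread, with 3 genes lower, 2 higher and 14 not called of 19 tested. Both shares called were below those of all mRNAs (25.3% lower and 25.8% higher). Among the common subunits, Cox5a, which surrounds the catalytic core, had levels of 7.71, 8.17, 7.97 and 8.03 in controls and 7.66, 7.48, 7.71 and 7.56 after contusion. The lowest control and the highest contusion array nearly touched, and Cox5a fell by 0.37 ± 0.11 (adjusted p = 0.0254). Cox5b, its zinc-binding neighbour, fell by 0.27 ± 0.08 (adjusted p = 0.0269). Both calls were lost with slide as a block (adjusted p = 0.0885 and 0.0901), without control replicate 2 (0.0622 and 0.07 adjusted p) and without control replicate 4 (0.0664 and 0.0736 adjusted p). Cox4i1, the common form of the regulatory subunit IV, differed by −0.16 ± 0.08 (adjusted p = 0.144) by its brightest probe. The second probe of Cox4i1 fell by 0.38 ± 0.08 (adjusted p = 0.00409), and the gene was called lower with the mean of both (−0.27, adjusted p = 0.0166) and with normexp and quantile scaling (−0.36, adjusted p = 7.27e-05). The common Cox6a1 (−0.21 ± 0.12), Cox6b1 (−0.11 ± 0.06), Cox7a2 (−0.28 ± 0.10), Cox7b (−0.20 ± 0.08) and Cox8a (−0.15 ± 0.08) were not called, nor was Cox7a2l (−0.11 ± 0.08). Of the 2 dimmer probes of Cox7a2, 1 fell by 1.03 ± 0.10 (adjusted p = 0.000188), and with the mean of its 3 probes Cox7a2 was called lower (−0.49, adjusted p = 0.00142).

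Ndufa4, first assigned to complex I and now known as a complex IV subunit, fell and its paralogue rose. Ndufa4 had levels of 6.83, 7.06, 6.94 and 7.05 in controls and 6.66, 6.71, 6.69 and 6.51 after contusion, a fall of 0.33 ± 0.08 (adjusted p = 0.0111) without overlap. Ndufa4l2, a hypoxia-induced relative that is abundant in pericytes, had levels of 1.00, 0.85, 1.23 and 0.77 against 1.64, 2.02, 1.59 and 1.48. All contusion arrays lay above all control arrays, and Ndufa4l2 rose 1.64-fold (0.72 ± 0.14, adjusted p = 0.00468), by 0.69 within each slide. Of 8 markers of pericytes and smooth muscle 5 rose and 0 fell, with mean levels of 1.90 to 2.33 on the control arrays and 2.73 to 3.00 on the contusion arrays. Their part in the result for Ndufa4l2 was not tested. Among 11 genes of the hypoxia response 2 rose and 3 fell, where 25.8% of all mRNAs were called higher and 25.3% lower.

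Cox6a2, the form of subunit VIa found in heart and skeletal muscle, had the largest difference of all 94 genes. Its levels were −0.41, −1.06, −0.54 and −1.45 on the control arrays and 2.21, 1.01, 0.53 and 0.34 on contusion replicates 1, 2, 3 and 4. Each contusion array exceeded each control array, with replicate 1 far above the rest. Cox6a2 rose 3.70-fold (1.89 ± 0.42, adjusted p = 0.00798), by 3.23 within slide 1 and 1.03 within slide 2. The mean level of 16 skeletal muscle markers reached 3.83 and 2.36 on contusion replicates 1 and 2, stayed at 0.27 and 0.30 on the other 2, and spanned −0.15 to 1.38 in controls. Of these markers 0 rose and 2 fell, Pvalb and Pygm, which neurons or glia also express. Without contusion replicates 1 and 2 the difference of Cox6a2 was 1.30 (adjusted p = 0.0223), while the marker means of the remaining contusion arrays lay inside the control range. The part of muscle RNA in the level of Cox6a2 was not tested.

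None of the other tissue-specific forms was called by its brightest probe. Cox7a1 had levels of 3.02, 3.34, 3.08 and 3.45 in controls and 3.57, 3.30, 3.52 and 3.57 after contusion, a difference of 0.27 ± 0.12 (adjusted p = 0.104). Its second probe rose by 0.46 ± 0.12 (adjusted p = 0.0141), and Cox7a1 was called higher with the mean of both (0.36, adjusted p = 0.0369) and with normexp and quantile scaling (0.35, adjusted p = 0.00893). Cox8b, the muscle and brown fat form of subunit VIII, had levels of 0.63, 1.06, 1.10 and 3.08 against 1.58, 0.26, −0.03 and −0.73, a difference of −1.19 ± 0.63 (adjusted p = 0.172). Control replicate 4 stood alone at 3.08, and without it the difference was −0.66. On the same array the mean of 5 fat markers, chosen after the values were seen, was 1.07 against −2.41 to −0.44 on all others, and its part in the level of Cox8b was not tested. Cox4i2, the form of lung and hypoxic cells, differed by −0.02 ± 0.06 (adjusted p = 0.782) with a 95% interval of −0.17 to 0.12. The testis-type Cox6b2 (−0.09 ± 0.07, adjusted p = 0.338) and Cox7b2 (−0.34 ± 0.35, adjusted p = 0.481) were not called, and a second, dimmer probe of Cox6b2 was higher by 0.31 ± 0.10.

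**Figure D4:**
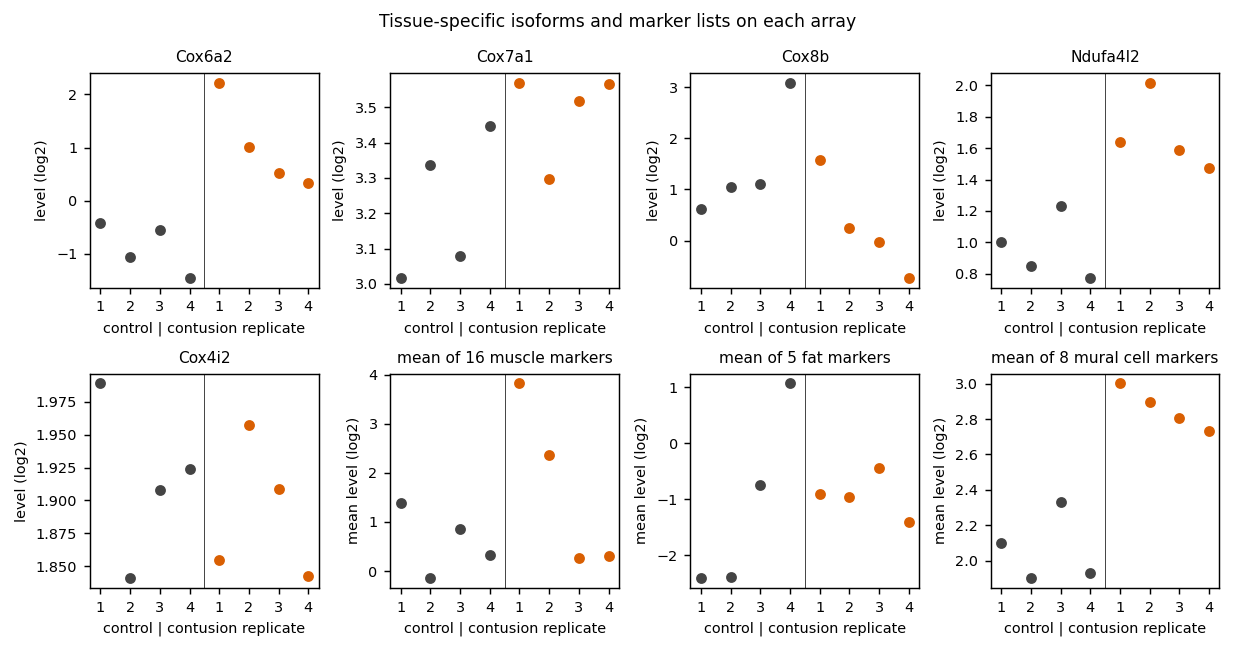
Levels of 5 complex IV genes with tissue-specific forms and mean levels of 3 marker lists on each array (y axes, log2, with a different range per panel; x axis, replicates of control in grey and of contusion in orange). Muscle markers are high on contusion replicates 1 and 2 and fat markers on control replicate 4, beside the high points of Cox6a2 and Cox8b.

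The balance between paired forms was compared within each array, as a difference of log2 signals. A constant shift of an array cancels in it, while quantile scaling can move it. Cox6a2 relative to Cox6a1 was higher by 2.09 after contusion, Ndufa4l2 relative to Ndufa4 by 1.05 and Cox7a1 relative to Cox7a2 by 0.55. In these 3 pairs the 4 contusion values lay above the 4 control values, each with p = 0.0286 in an exact two-sided permutation test, the smallest p that 70 splits allow, and an adjusted p = 0.0571 over 6 pairs. Cox4i2 relative to Cox4i1 differed by 0.13 (exact permutation p = 0.143), Cox6b2 relative to Cox6b1 by 0.02 (p = 0.8) and Cox8b relative to Cox8a by −1.04 (p = 0.229). The probes of a pair have little sequence in common, as their first 30 bases show for the 2 pairs that differed most; no base is in capitals because the probes were not aligned.
Cox6a2 probe: agcaatcttcaaattggccttctgcacacc
Cox6a1 probe: ggaccacgaaaaccctttggatgctaagct
Ndufa4l2 probe: tgtccctggggatcaaacagaagcagccgt
Ndufa4 probe: atccgcacaattttccacttaagcaggaaa
The longest run that each of these pairs shared over the full 60 bases was 4 bases for Cox6a2 and Cox6a1 and 7 bases for Ndufa4l2 and Ndufa4.

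In complex V, 3 of 18 genes fell, 0 rose and 17 lay below 0, with a median of −0.16. Both shares called were below those of all mRNAs (25.3% lower and 25.8% higher), of which 50.2% lay below 0. Atp5b, the catalytic beta subunit, had levels of 8.21, 8.58, 8.495 and 8.38 in controls and 8.28, 8.11, 8.08 and 8.04 after contusion. Contusion replicate 1 lay above control replicate 1, and Atp5b fell by 0.29 ± 0.10 (adjusted p = 0.0453), a call lost in 11 of the 18 alternatives, slide as a block among them (adjusted p = 0.13). Its partner Atp5a1, the alpha subunit, differed by −0.15 ± 0.07 (adjusted p = 0.143), but its other 2 probes fell by 0.37 ± 0.06 (adjusted p = 0.00174) and 0.36 ± 0.07 (adjusted p = 0.00476). With the mean of its probes Atp5a1 was called lower (−0.295, adjusted p = 0.00684). Atp5h, of the peripheral stalk, fell by 0.36 ± 0.11 (adjusted p = 0.0333), with control replicate 1 at 7.35 below contusion replicate 1 at 7.40. The call of Atp5h was kept in 7 of the 18 alternatives and lost with slide as a block (−0.23, adjusted p = 0.0979) and without any one of control replicates 2, 3 and 4 or contusion replicates 2, 3 and 4 (adjusted p = 0.0614 to 0.0853). Dmac2l, named Atp5s in the array files, had levels of 2.502, 3.11, 2.86 and 2.99 against 2.53, 2.28, 2.38 and 2.18 and fell by 0.52 ± 0.14 (adjusted p = 0.0178). That call ended without control replicate 4 (adjusted p = 0.0512) and without contusion replicate 4 (adjusted p = 0.0501).

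The 3 genes for the identical c-ring subunit did not move alike in value. Atp5g1 (−0.13 ± 0.06, adjusted p = 0.129) and Atp5g3 (−0.19 ± 0.08, adjusted p = 0.101) lay below 0 without overlap of the groups, and Atp5g2 lay above it at 0.21 ± 0.11 (adjusted p = 0.196). Atp5g2 had levels of 6.72, 7.24, 7.07 and 6.91 in controls and 7.30, 7.08, 7.20 and 7.19 after contusion, with control replicate 2 inside the contusion range. The second probe of Atp5g1 was far dimmer, with a control mean of −0.20 against 5.29 for the brightest. That probe fell by 0.71 ± 0.12 (adjusted p = 0.0017), and with the mean of both Atp5g1 was called lower (−0.42, adjusted p = 0.0023). With slide as a block Atp5g2 was called higher (adjusted p = 0.0452), from differences of 0.23 and 0.43 within the slides.

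Around the complexes, the enzymes that supply electrons formed the list with the lowest median. Of 116 other mitochondrial and hypoxia genes tested from 9 lists, 43 fell and 10 rose, and their median was −0.09. Among all mRNAs 25.3% were called lower and 25.8% higher. In the TCA cycle and pyruvate dehydrogenase list 14 of 24 fell and 1 rose, with a median of −0.30. Dlat, the acetyltransferase of pyruvate dehydrogenase, fell by 0.87 ± 0.12 (adjusted p = 0.00079). Idh3a, a subunit of the NAD-dependent isocitrate dehydrogenase, fell by 0.80 ± 0.10 (adjusted p = 0.000561), a size that changed with the setting. It was −0.32 (adjusted p = 0.00138) with normexp and quantile scaling, and −0.26 (adjusted p = 0.0468), −0.315 (adjusted p = 0.0171) and −0.235 (adjusted p = 0.0436) without control replicates 2, 3 and 4. The brightest probe was chosen anew in each setting. On the probe that gave −0.80, control arrays stood at 5.31 to 5.70 and contusion arrays at 4.65 to 4.86. Leaving out a control array cannot bring that probe to the last values, so another probe of Idh3a was read there. With the mean of its probes Idh3a was at −0.54 (adjusted p = 0.00135). Pdp1, the phosphatase that activates pyruvate dehydrogenase, fell by 0.79 ± 0.08 (adjusted p = 0.000233), and Pdk4, a kinase that inactivates it, rose by 0.51 ± 0.10 (adjusted p = 0.00549). Cycs, the cytochrome c that carries electrons from complex III to IV, fell by 0.35 ± 0.09 (adjusted p = 0.0147), a call lost with slide as a block (adjusted p = 0.054), while Cyc1 of complex III differed by −0.12 ± 0.07 (adjusted p = 0.222) and was called lower when its probes were averaged (−0.21, adjusted p = 0.041).

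Carriers, porins and import genes fell in 7 of 15 and rose in 1, where 25.3% of all mRNAs were called lower and 25.8% higher. Ckmt1, the mitochondrial creatine kinase, fell by 1.07 ± 0.10 (adjusted p = 0.000184), Tomm20, an import receptor, by 0.86 ± 0.11 (adjusted p = 0.000685), and Tomm70a, another, by 0.52 ± 0.10 (adjusted p = 0.00325). With the mean of its probes Tomm20 was at −0.41 (adjusted p = 0.00227). Ucp2, a carrier abundant in macrophages, rose by 1.21 ± 0.13 (adjusted p = 0.000343). Genes of mitochondrial biogenesis were mixed, with 7 of 20 lower and 2 higher. The coactivators Ppargc1a (−0.82 ± 0.08, adjusted p = 0.000194) and Ppargc1b (−0.79 ± 0.11, adjusted p = 0.000847) and the receptor gene Esrra (−0.63 ± 0.09, adjusted p = 0.00116) fell. Gabpa, a subunit of NRF2, rose by 0.57 ± 0.07 (adjusted p = 0.000486) and the coactivator Pprc1 by 0.45 ± 0.07 (adjusted p = 0.00174). Tfam, which packages mitochondrial DNA, fell by 0.25 ± 0.07 (adjusted p = 0.0262), and Nrf1 was not called (0.21 ± 0.15, adjusted p = 0.313). The call of Tfam was kept in 9 of the 18 alternatives, lost with slide as a block (adjusted p = 0.0899) and without any one of control replicates 2 and 4 or contusion replicates 2, 3 and 4 (adjusted p = 0.0555 to 0.0733). When its probes were averaged, Tfam fell by 0.52 (adjusted p = 0.00173).

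Assembly factors outside the member rule gave 11 lower and 4 higher genes, where 25.3% of all mRNAs were called lower and 25.8% higher. For complex I, Nubpl, which inserts iron-sulfur clusters, rose by 0.66 ± 0.08 (adjusted p = 0.000463), and Ecsit fell by 0.38 ± 0.07 (adjusted p = 0.00348). Of 10 factors for complexes II and III 3 fell: Lyrm7 (−0.56 ± 0.08, adjusted p = 0.00113), Uqcc1 (−0.53 ± 0.08, adjusted p = 0.00128) and Sdhaf3 (−0.47 ± 0.10, adjusted p = 0.00599). For complex IV 5 of 22 fell, led by Cox11 (−0.50 ± 0.12, adjusted p = 0.0121) and Lrpprc (−0.46 ± 0.12, adjusted p = 0.0171), and 3 rose, Taco1 (0.38 ± 0.06, adjusted p = 0.0017), Cox20 (0.31 ± 0.09, adjusted p = 0.028) and Pet100 (0.30 ± 0.05, adjusted p = 0.00307). Of the factors that build the head of ATP synthase, Atpaf1 fell by 0.55 ± 0.10 (adjusted p = 0.00356). Atpaf2 fell by 0.34 ± 0.07 (adjusted p = 0.00425) by its brightest probe, a call lost when its probes were averaged (−0.06, adjusted p = 0.483). The mean of probes also ended the calls of Pet100 (0.06, adjusted p = 0.517) and Lyrm7 (−0.36, adjusted p = 0.0825), and Uqcc1 was then at −0.29. Lyrm7 was at −0.23 with normexp and quantile scaling. The call of Cox20 ended without control replicate 3 (adjusted p = 0.0645) and without contusion replicates 1 (adjusted p = 0.0557) or 3 (adjusted p = 0.0766). Of the hypoxia response genes, the lactate dehydrogenase gene Ldha rose by 0.99 ± 0.10 (adjusted p = 0.000239) and the glucose transporter gene Slc2a1 by 0.37 ± 0.07 (adjusted p = 0.00379), while Vegfa fell by 0.78 ± 0.13 (adjusted p = 0.00179), Bnip3 by 0.62 ± 0.12 (adjusted p = 0.00379) and Egln3 by 0.50 ± 0.07 (adjusted p = 0.00119). With the mean of probes Egln3 was not called (−0.17, adjusted p = 0.0834), and Vegfa was at −0.49 (adjusted p = 0.00369).

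**Figure D5:**
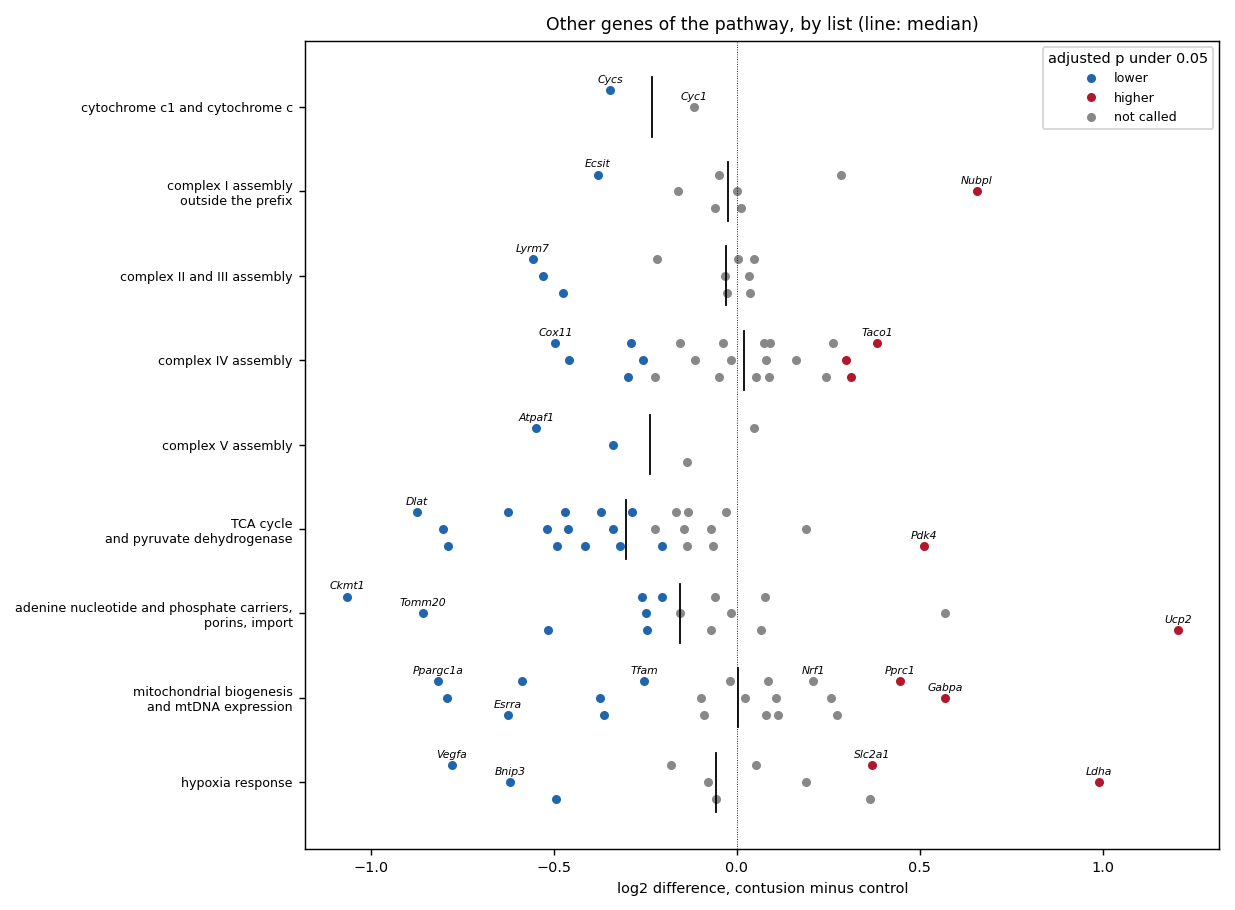
Log2 difference (contusion minus control, x axis) of 116 other genes of the pathway in 9 lists, each point 1 gene and each vertical line the list's median; colours give the call at an adjusted p of 0.05. The TCA cycle and pyruvate dehydrogenase list lies furthest to the left, with a median of −0.30, and Ucp2 and Ldha lie furthest to the right.

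Probes of the same gene mostly moved together. Counted here were 210 probes of the members, of which 208 were tested, and 91 members had at least 2. These counts leave out a probe of Dmac2 and the probe that stands for Dmac2l. In 86 of these 91 the probes all differed in the same direction, and in 23 all were called lower. The same counts of genes were not made for all mRNAs. Of the 115 probes that do not stand for a gene 99 lay below 0, 48 were called lower and 6 higher, when 27.1% of all mRNA probes were called lower. Opposite signs occurred in Ndufab1, Cox6b2, Cox4i2, Atp5e and Ndufa2. In all 10 members have named pseudogenes in the annotation, among the called ones Uqcrh, Cox5b and Ndufab1, and the arrays cannot separate a close copy from its parent gene.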

How the data were processed

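Per the labels' protocols, a miRNeasy kit gave the RNA and Agilent's Low Input Quick Amp WT kit the labelled copy. Per the file headers, Feature Extraction subtracted background from the intensities and removed spatial trends array by array, with no scaling between arrays. The submitters' processing notes name version 10.7 and limma, while the headers read 12.0.3.1. Its flags of 0 or 1 for detection, saturation and outliers were used too. The authors' deposited table holds log2 values with column medians of 5.40 and a Spearman correlation of 1 with each array's intensities; its scale between arrays looks quantile normalized, and it served as an alternative.

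A level is the log2 of a probe's processed intensity from which that array's 75th percentile, taken over non-control probes, was subtracted. Control and outlier spots (6 to 53 per array) were left out, and 0 spots were saturated. The 75th percentiles were 203 to 251 intensity units. The brightest tested probe stood for each gene. It was chosen anew in each alternative setting, so the probe read can differ between settings. Groups were compared with limma 3.58.1 in R 4.3.3 (lmFit, eBayes, group only, two-sided, Benjamini-Hochberg over 89105 features), tested on simulated data. With 4 arrays per group, their number limits the precision. The p-values measure the spread between these mice. Of 22694 mRNA accessions 99.1% matched RefSeq symbols.

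The members and gene lists were chosen with earlier results of these data known. Named genes are, per complex, up to 4 called rises and 4 called falls without overlap, the isoform pairs, the core subunits and up to 3 calls per direction in each list. Ndufa7, Ndufa8, Ndufab1, Ndufaf4, Ndufb11, Uqcrb, Uqcrq, Atp5h and Dmac2l were added after their values were seen. The 18 alternatives covered scaling, background correction, the authors' table, filters, probe choice, slide or replicate number as a block, and arrays left out. A single gene that belongs to the counts is not reported here by name.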

Additional observations from a re-analysis of the deposited data

Results flagged for a closer look

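Of 188 groups of 4 arrays examined, 4 held an array that stood apart from the other 3 by Dixon's ratio of the gap to the range. Chance alone flags about 1 in 20 groups. In Cox6b2, control replicate 1 was highest at 3.795, next to 3.65 (ratio 0.923). In Ndufa3, an accessory subunit of complex I, control replicate 2 was highest at 7.23, next to 7.08 (ratio 0.895). In Cox6b1, contusion replicate 1 was lowest at 7.64, next to 7.77 (ratio 0.868). In Ndufa11, an accessory subunit of complex I, contusion replicate 3 was highest at 4.26, next to 4.13 (ratio 0.833).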

How the results depend on the processing

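Of the named members' differences 703 kept direction and side of the threshold under an alternative, 86 lost and 36 gained a call, and 3 reversed: Cox4i2 to 0.029 with the mean of its probes and 0.016 without control replicates 1 and 4 (chosen after the data were seen), and Cox6b2 to 0.11 with the mean of its probes. The 29 members called lower became 55 with normexp and quantile scaling, 44 in the authors' table and 14 with slide as a block. They became 11 with the replicate block (11.7% of the members, against 19.4% of mRNAs). Without contusion replicates 1 and 2 they became 10 (10.6% of the members, against 19.6% of mRNAs). When single arrays were left out, the count ranged from 13 to 44. The 3 called higher became 6 with normexp and quantile scaling and with the mean of probes, and stayed at 3 without any single array. Among all mRNAs 28.7% were called higher with that scaling and 26.7% with the mean of probes. Without single arrays 22.4% to 25.1% of mRNAs were called higher. Of 116 pathway genes tested, the 43 called lower became 28 without contusion replicates 1 and 2, where 19.6% of mRNAs were called lower. The 10 called higher became 17 with normexp and quantile scaling, where 28.7% of mRNAs were called higher. The causes were not tested. Settings that leave arrays out hold fewer arrays, and the brightest probe of a gene can change with the setting.

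The adjusted p of 4 isoform pairs (exact permutation test) fell to 0.0429 with normexp and quantile scaling, in the authors' table and without control replicate 1. The differences were then 1.68, 2.07 and 2.33 for Cox6a2 to Cox6a1, 0.54, 0.54 and 0.55 for Cox7a1 to Cox7a2, 0.94, 1.04 and 1.10 for Ndufa4l2 to Ndufa4, and 0.31, 0.23 and 0.19 for Cox4i2 to Cox4i1. Without single arrays these ranged over 1.74 to 2.33, 0.48 to 0.61, 0.96 to 1.15 and 0.059 to 0.189. Cox6b2 to Cox6b1 ranged from −0.04 to 0.065 and was −0.009 without contusion replicates 1 and 2.

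Titles number the replicates 1 to 4 in both groups. Deviations of same-numbered samples correlated at −0.30, −0.01, 0.00 and −0.05. Same-numbered samples always lay on different slides, so these values cannot settle whether the numbers pair the mice. The groups were compared without pairing, and the replicate block is reported here alone. Limits: 4 arrays per group, slides unevenly split between the groups, days that differ between labels, and tissue RNA in which cell makeup and RNA per cell are mixed. Genes that varied widely between arrays, such as Cox7b2 (standard error 0.35) and Cox8b (0.63), could hide changes of 2-fold.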
